A study of Mus musculus with 12 samples.

Results

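The genes described here are the 3 E proteins Tcf3, Tcf12 and Tcf4 and the 3 Id inhibitors Id1, Id2 and Id3. All are helix-loop-helix genes, taken by name from the table of 18193 named genes. Of each gene the probe set brightest on average on the 12 arrays stands for it, with its other probe sets given beside it. The 6 genes had 19 probe sets, and 18 of these lay above the expression filter, a log2 intensity of 6.33 in at least 2 arrays. All 6 genes were among the 12797 tested. Id1 passed through few arrays: only 3 lymphomas and the cell line lay above the filter level, so its sizes rest on low values.

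E proteins are transcription factors that pair with one another through their helix-loop-helix domain and bind a short DNA motif called the E-box. Id proteins carry the same domain without the region that contacts DNA, so an E protein paired with an Id protein cannot bind. In the thymus, E proteins drive the programme of T cell precursors, and signals from the pre-T cell receptor and the T cell receptor restrain them through EGR factors and Id3. Id2 is known for its high level in innate lymphocytes and effector T cells.

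The arrays came from a mouse model of T cell lymphoma driven by ZMYM2-FGFR1, a fusion of a zinc finger protein with a receptor tyrosine kinase. Normal CD4+CD8+ double-positive (DP) thymocytes were sorted as Thy1+ cells from Balb/c thymus (n = 3, each a pool of 3 mice). T lymphomas were from mice of the third serial transplant of the ZMYM2-FGFR1 disease (n = 4). In 3 of them the tissue was not sorted and most cells were GFP+ Thy1+ DP cells, and the fourth was sorted for such cells. ZNF112, which the labels describe only as a cell line, gave 1 array. Haematopoietic stem cells (HSC; lineage-negative Sca-1+ c-Kit+) were sorted from the marrow of normal female Balb/c mice (n = 2, pools of 5). Leukaemic stem cells (LSC) were GFP+ cells of the same surface phenotype from marrow or spleen of leukaemic ZMYM2-FGFR1 mice (n = 2, pools of 2 to 3). Strain is labelled for the normal groups, and ages were not given. The labels call the replicates biological. In the main fit the p-values rest on 1 spread per gene, pooled over all groups and not only the 2 compared. A group of 1 array adds nothing to that pooled spread.

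Values are log2 intensities of probe sets. The 8 arrays of the cell line, the lymphomas and DP thymocytes had median intensities of 99.5 to 109, and the 4 HSC and LSC arrays 44.3 to 46.1, so levels were compared within each of these sides. Replicates were far closer together among DP thymocytes (SD as a root mean square over genes, 0.153) than among lymphomas (0.619), HSC (0.554) or LSC (1.02). The beta-actin 3′ signal over its 5′ signal, a measure of RNA quality, was 2.44 to 3.69 in T lymphoma against 2.18 to 2.23 in DP thymocytes, 2.60 in the cell line, 3.91 and 5.79 in HSC, and 9.82 and 13.6 in LSC. The filter level is an intensity of 80.2, under the median of each array on the first side and above that of each HSC and LSC array. In DP thymocytes 5 to 6 of 10 macrophage markers lay above it. All 10 measured DP markers lay above the filter level in DP thymocytes and T lymphoma, and Cd8b1 alone lay under it in the cell line. All 8 measured stem and progenitor markers lay above it in HSC. Of these markers Hlf and Mecom lay under the level in LSC 1, and Flt3, Hlf, Mecom, Meis1 and Cd34 did in LSC 2. These are bulk samples, in which fewer cells of a type and less RNA per cell cannot be told apart.

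The promoters of Id2 and Id3 are shown because these inhibitors had the largest differences between T lymphoma and DP thymocytes among the 6 genes. Each sequence is the 250 bases before the gene's start in RefSeq (mouse build GRCm38.p6), 5′ to 3′ on the gene's strand. The Id2 stretch lies at chr12:25096093-25096342 on the minus strand, and the Id3 stretch at chr4:136143572-136143821 on the plus strand. Capitals mark matches to the searched motifs.
Id2 promoter: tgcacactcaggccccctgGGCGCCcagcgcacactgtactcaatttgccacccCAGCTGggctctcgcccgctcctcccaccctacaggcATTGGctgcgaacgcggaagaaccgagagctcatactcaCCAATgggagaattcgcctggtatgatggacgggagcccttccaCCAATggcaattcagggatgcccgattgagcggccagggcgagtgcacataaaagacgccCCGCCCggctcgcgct
Id3 promoter: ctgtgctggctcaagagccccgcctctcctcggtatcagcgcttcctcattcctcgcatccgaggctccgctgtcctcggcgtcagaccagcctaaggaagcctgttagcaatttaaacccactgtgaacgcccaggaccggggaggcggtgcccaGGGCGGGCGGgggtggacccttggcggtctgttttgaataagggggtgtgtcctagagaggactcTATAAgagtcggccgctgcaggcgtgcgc

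The Id2 stretch held 1 E-box (CANNTG), which was of the CAGCTG type that E proteins are known to bind and began 196 bases before the start. A BMP-type SMAD motif (GGCGCC) began at 231 bases, 3 CCAAT boxes at 159, 120 and 76 bases, and a GC box (GGGCGG) at 16 bases. The Id3 stretch held no E-box, 2 overlapping GC boxes at 94 and 90 bases, and TATAA at 29 bases. Both strands were searched, and the GC box and TATAA were added after the sequences were seen. Of 32851 RefSeq promoters of this length, 66.2% held CANNTG, 13.0% CAGCTG, 9.59% GGCGCC, 33.8% CCAAT, 32.7% GGGCGG and 22.8% TATAA. The letters CACGTG (6.02% of promoters), GCGNGGGCG (an EGR motif, 4.7%) and TTCNNNGAA (a STAT motif, 7.02%) were in neither stretch. A match is a description of these letters and not a bound site.

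The first comparison set T lymphoma against DP thymocytes, normal cells with the same surface markers. Id2 rose in T lymphoma, by 3.21 ± 0.75 on the log2 scale (SE; 9.25-fold). The other 5 genes did not pass the test; Id3 had the next largest difference, -3.15 ± 1.04, and Tcf3 had -1.06 ± 0.44. So 1 of the 6 genes was called, higher, where 6.55% of the 12797 genes tested were called in either direction, 3.37% higher and 3.18% lower, by limma at a Benjamini-Hochberg threshold of 0.05. The median difference was -0.62 over the 6 genes and -0.02 over all genes tested.

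**Figure D1:**
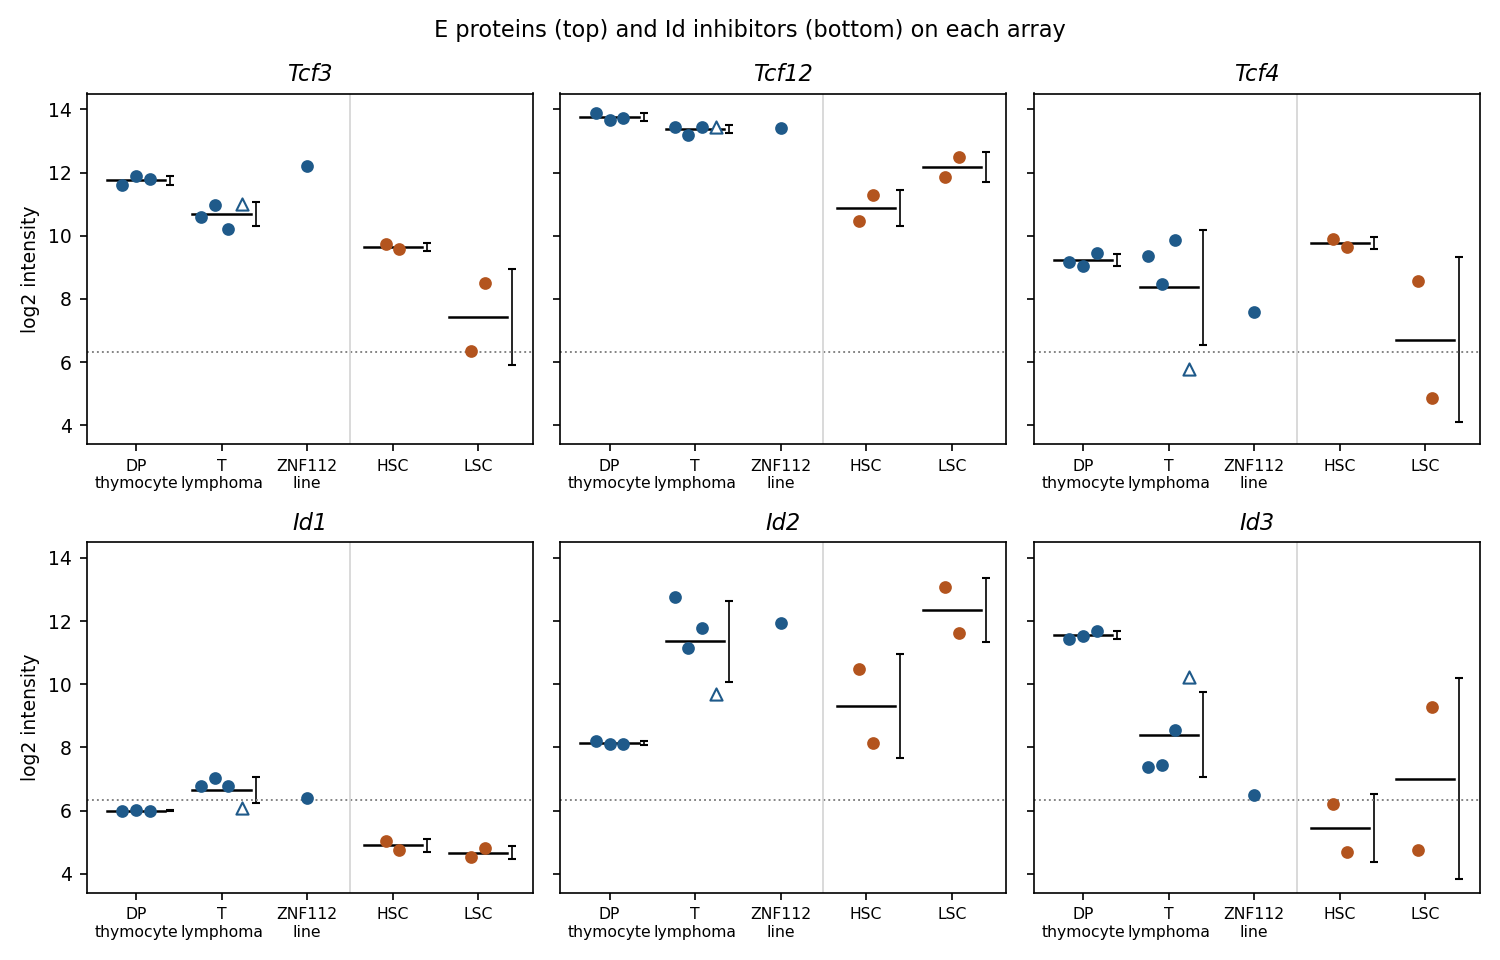
Log2 intensity (vertical axis) of each gene's representative probe set on each array, by group. Points are arrays, the open triangle is the sorted lymphoma, black lines are group means with SD bars beside them, the dotted line is the filter level of 6.33, and the vertical line parts the sides normalized apart. Id2 lay between 9.70 and 12.77 in T lymphoma against 8.10 to 8.21 in DP thymocytes, and Id3 between 7.37 and 10.24 against 11.44 to 11.69.

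Tcf3 encodes E12 and E47, splice forms that are the main E proteins of early lymphocytes together with the product of Tcf12. Its log2 intensity was 11.60, 11.88 and 11.79 in DP thymocytes. It was 10.61, 10.97 and 10.20 in the unsorted lymphomas and 11.01 in the sorted one. Every lymphoma lay below every DP array, yet the difference of -1.06 ± 0.44 had an adjusted p of 0.195 (limma, Benjamini-Hochberg). Groups that did not overlap in this way were common, with 19.1% of all genes tested lower and 15.3% higher in T lymphoma. The other Tcf3 probe sets had differences of -1.33 ± 0.42 and -1.17 ± 0.30, with the lower of their adjusted p-values at 0.0506 (limma over 23070 probe sets, of which 6.22% were called). When the fit used only the DP and lymphoma arrays, the adjusted p of the main Tcf3 probe set was 0.0226, and with array weights it was 0.0040.

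Tcf12, which encodes HEB, the partner of E12 and E47 in thymocytes, read 13.88, 13.65 and 13.74 in DP thymocytes. It read 13.45, 13.17 and 13.44 in the unsorted lymphomas and 13.45 in the sorted one. The groups did not overlap, but they were close: the difference was -0.38 ± 0.23 (limma, Benjamini-Hochberg adjusted p = 0.376). All 5 Tcf12 probe sets had negative differences, from -0.67 to -0.03, and their lowest adjusted p was 0.376. With array weights the main probe set passed, at -0.45 with an adjusted p of 0.0350, and with only the arrays compared its adjusted p was 0.0881 (limma, Benjamini-Hochberg).

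Tcf4 encodes E2-2, the E protein best known from plasmacytoid dendritic cells. It read 9.18, 9.06 and 9.44 in DP thymocytes, 9.35, 8.46 and 9.87 in the unsorted lymphomas and 5.78 in the sorted lymphoma. The unsorted tumours spanned the DP values, while the sorted tumour lay under the filter level. The difference over the 4 lymphomas was -0.86 ± 1.04 (limma, Benjamini-Hochberg adjusted p = 0.687), and without the sorted lymphoma it was 0.00045.

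Among the inhibitors, Id1, known as an early target of BMP signals, read 6.0, 6.01 and 5.98 in DP thymocytes. It read 6.77, 7.03 and 6.78 in the unsorted lymphomas and 6.07 in the sorted one. All lymphomas lay above all DP arrays, the sorted one only just, and no DP array reached the filter level. The difference of 0.66 ± 0.23 had an adjusted p of 0.130 (limma, Benjamini-Hochberg), and without the sorted lymphoma it was 0.86 with an adjusted p of 0.0150.

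Id2 read 8.21, 8.12 and 8.10 in DP thymocytes. The unsorted lymphomas read 12.77, 11.15 and 11.79, and the sorted lymphoma 9.70. Each lymphoma lay above each DP array, with the sorted tumour nearest to them. The rise of 3.21 ± 0.75 had an adjusted p of 0.0366 (limma, Benjamini-Hochberg). Of the other Id2 probe sets, 1 rose by 2.83 ± 0.66 (adjusted p = 0.0356) and the other, which reached the filter level in only 2 arrays, had 0.82 ± 0.32 (adjusted p = 0.170). In the 7 fits that left out 1 array the difference was 2.74 to 3.76. Its call was lost in 6 of them, without any DP array (highest adjusted p = 0.136) or any unsorted lymphoma (0.0778 to 0.0843), and was kept without the sorted lymphoma (adjusted p = 0.0087). With the sorted lymphoma as the only one, the difference was 1.56 (limma, Benjamini-Hochberg adjusted p = 0.785).

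Id3, the inhibitor that rises when thymocytes receive receptor signals, read 11.44, 11.54 and 11.69 in DP thymocytes. The unsorted lymphomas read 7.37, 7.45 and 8.57 and the sorted lymphoma 10.24. All lymphomas lay below all DP arrays, and the sorted tumour was again the nearest to them. The difference of -3.15 ± 1.04 did not pass over the 4 lymphomas (limma, Benjamini-Hochberg adjusted p = 0.113). It was -3.76 without the sorted lymphoma (adjusted p = 0.0444) and -1.32 with it alone, and it passed with only the arrays compared (adjusted p = 0.0259) and with array weights (adjusted p = 2.52e-04). Id3 had 1 probe set, so no other reading of it was at hand.

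The sorted lymphoma was also set against the 3 unsorted tumours. None of the 6 main probe sets passed, where 0.656% of all genes were called (0.0625% higher and 0.594% lower by limma, Benjamini-Hochberg). At an unadjusted p under 0.05 were 3 of the 6, and 1278 of all 12797 genes tested. Differences were -3.45 ± 1.14 for Tcf4, -2.20 ± 0.93 for Id2, 2.44 ± 1.41 for Id3, -0.79 ± 0.24 for Id1, 0.42 ± 0.69 for Tcf3 and 0.09 ± 0.37 for Tcf12, with adjusted p-values of 0.299 and above. Among the 5 tested Tcf4 probe sets, 3 fell in the sorted tumour (differences of -4.24, -3.72 and -3.10), where 0.485% of all probe sets were called. That tumour read 4.75, 4.99 and 4.86 on them, under the filter level, so the size of these falls is uncertain. The sorted group was 1 array, assumed to vary like the others, so the sort and the tumour cannot be told apart.

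Markers of other cells were summed as well. The stroma, macrophage, stem and progenitor, and granulocyte sums set the unsorted lymphomas apart from the sorted one, DP thymocytes and the cell line alike. The 8 stem and progenitor markers summed to 1460 to 3835 in the unsorted lymphomas and 603 in the sorted one. They summed to 614 to 668 in DP thymocytes and 725 in the cell line. The 7 granulocyte markers summed to 808 to 3446, 522, 399 to 426 and 453 in the same order. The erythroid sums did not set these tumours apart in this way. The B cell sums of the unsorted lymphomas overlapped those of DP thymocytes. The NK and cytotoxic sum of the sorted lymphoma lay within the range of the unsorted ones. The summed intensity of 11 stroma and endothelium markers was 17929 to 35691 in the unsorted lymphomas, 815 in the sorted one, 819 to 952 in DP thymocytes and 916 in the cell line. For 10 macrophage markers the sums were 16628 to 40426, 1115, 984 to 1075 and 1153 in the same order, and for 7 B cell markers 17742 to 31406, 3418, 16013 to 18784 and 773. The 7 NK and cytotoxic markers summed to 19939 to 68825 in the unsorted lymphomas and 23446 in the sorted one. They summed to 43713 in the cell line and 1965 to 2265 in DP thymocytes. Of these 7, 4 to 5, 4, 3 and 3 to 4 lay above the filter level in the same order. Ncr1 and Klrk1 lay under it on all these arrays, so the sums rest on the other markers. The part of such cells in the Id2, Id3 and Tcf4 differences was not tested. In the cell line, whose stroma and macrophage sums were near those of DP thymocytes, Id2 was at 11.93 and Id3 at 6.48.

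The cell line was set beside DP thymocytes and T lymphoma with 1 array, assumed to vary like the others. Tcf3 read 12.22, above every DP and lymphoma array, Tcf12 13.41, Tcf4 7.59, Id1 6.38, Id2 11.93 and Id3 6.48. Id2 and Id3 thus lay on the lymphoma side of the DP values, while Tcf3 did not. Against DP thymocytes the differences were 3.79 ± 1.14 for Id2 (adjusted p = 0.0996), -5.07 ± 1.57 for Id3 (adjusted p = 0.108), -1.64 ± 1.57 for Tcf4 and 0.46 ± 0.67 for Tcf3. None of the 6 genes passed, where 5.3% of all genes were called (2.78% higher and 2.52% lower by limma, Benjamini-Hochberg). At an unadjusted p under 0.05 were 2 of the 6, and 2350 of all 12797 genes tested. Against T lymphoma none passed either, where 1.16% of all genes were called (0.539% higher and 0.617% lower). There 1 of the 6 was at an unadjusted p under 0.05, as were 1544 of all 12797 genes tested. The Tcf3 difference was 1.52 ± 0.64 (limma, Benjamini-Hochberg adjusted p = 0.392). Neither comparison called any of the 18 probe sets, where 4.56% and 0.772% of all probe sets were called; the Id2 probe sets had 1.99 to 3.85 against DP thymocytes, with adjusted p-values of 0.0520 to 0.101. Both comparisons share arrays with that of T lymphoma and DP thymocytes.

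**Figure D2:**
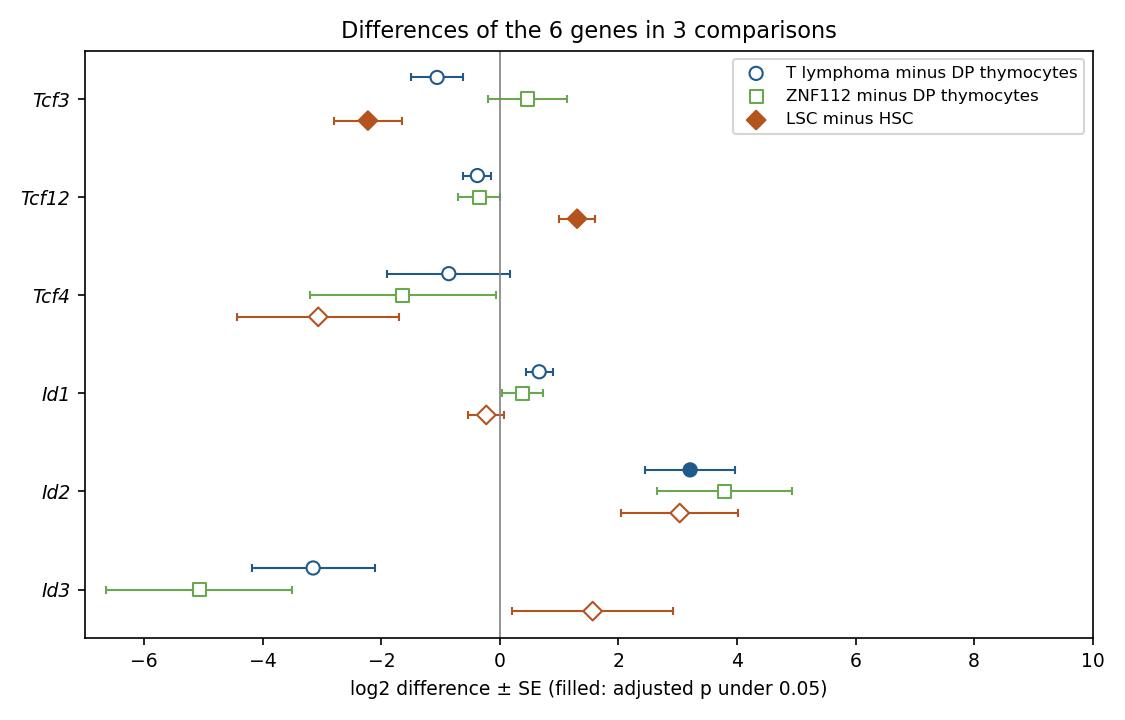
Log2 difference with its SE (horizontal axis) for each gene in 3 comparisons, of which T lymphoma and ZNF112 share the DP arrays. Filled symbols passed limma's test. Id2 lay at 3.21, 3.79 and 3.03 and Id3 at -3.15, -5.07 and 1.56, while Tcf12 was at -0.38, -0.35 and 1.30.

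Next, LSC were set against HSC, their normal counterparts by surface phenotype. Tcf12 rose, by 1.30 ± 0.31, and Tcf3 fell, by 2.23 ± 0.58. Among the genes that missed the threshold, Id2 had 3.03 ± 0.99, Id3 1.56 ± 1.36, Tcf4 -3.06 ± 1.36 and Id1 -0.23 ± 0.30. The 2 of 6 genes called stood against 10.3% of all genes tested (4.05% higher, 6.21% lower; limma, Benjamini-Hochberg). The LSC arrays differed from each other in most of these genes.

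Tcf3 read 9.74 and 9.56 in HSC and 6.34 and 8.51 in LSC. Both LSC arrays lay below both HSC arrays, LSC 1 by far the most, and 22.5% of all genes were lower in this way and 20.5% higher. The fall had an adjusted p of 0.0407 (limma, Benjamini-Hochberg). It was -3.31 without LSC 2 (adjusted p = 7.93e-04), and the call was lost without HSC 1, HSC 2 or LSC 1, with adjusted p-values of 0.129, 0.123 and 0.0527; without LSC 1 it was -1.14. The other Tcf3 probe sets had -1.45 ± 0.55 and -0.74 ± 0.39, neither called, where 9.2% of all probe sets were.

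Tcf12 read 10.46 and 11.28 in HSC and 11.85 and 12.51 in LSC. Both LSC arrays lay above both HSC arrays, and the rise had an adjusted p of 0.0294 (limma, Benjamini-Hochberg). Its 5 probe sets had differences of 0.94 to 2.60, of which 3 were called. Leaving out HSC 1 gave 0.89 (adjusted p = 0.114) and leaving out LSC 2 gave 0.97 (adjusted p = 0.0672), while the call was kept without HSC 2 or LSC 1. The rise in LSC minus HSC differed from the T lymphoma minus DP difference by 1.68 ± 0.39, the only 1 of the 6 genes called in that test of the difference (adjusted p = 0.0304; 8.88% of all genes called, 3.59% higher and 5.28% lower). In the probe set fit 2 of 5 Tcf12 probe sets passed this test, where 7.78% of all did. That call was kept in 5 of 11 fits without 1 array, over which the value was 1.27 to 2.09, and was lost without any DP array, lymphoma 1, lymphoma 2 or HSC 1, with the highest adjusted p at 0.0860.

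Tcf4 read 9.91 and 9.64 in HSC and 8.55 and 4.87 in LSC. LSC 2 lay under the filter level and LSC 1 nearer to HSC, and the main probe set had an adjusted p of 0.194 (limma, Benjamini-Hochberg). All 5 tested Tcf4 probe sets had negative differences, and 2 of them fell (-4.66 ± 1.10 and -4.46 ± 0.93). Both of these read under the filter level in both LSC arrays, at 4.47 to 4.97, against 8.92 to 9.73 in HSC, so the size of these falls is uncertain. The sixth probe set lay under the filter level in every array. Without LSC 1 the main probe set was at -4.91 with an adjusted p of 0.0386.

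Id2 read 10.48 and 8.14 in HSC and 13.06 and 11.62 in LSC. Each LSC array lay above each HSC array, but the HSC arrays themselves differed by more than 2 units, and the adjusted p was 0.0862 (limma, Benjamini-Hochberg). Without HSC 2 it was 1.86 and without HSC 1 it was 4.21. Id3 read 6.22 and 4.69 in HSC and 4.76 and 9.27 in LSC, so that only LSC 2 lay above the filter level. Its difference was 3.82 without LSC 1 (adjusted p = 0.0453) and -0.69 without LSC 2. Id1 was under the filter level on these 4 arrays, at 4.53 to 5.05.

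LSC 2 also stood apart in the marker lists. The 8 stem and progenitor markers summed to 9924 and 13551 in HSC, 13432 in LSC 1 and 2540 in LSC 2, and the 10 DP markers to 5273 and 6763 in HSC, 8767 in LSC 1 and 22728 in LSC 2. Other marker sums moved as well. The 7 NK and cytotoxic markers summed to 846 to 2490 in HSC and 22129 to 29797 in LSC. Only 3 of the 7 lay above the filter level in each LSC array, and 2 to 3 in HSC. Ncr1, Klrk1, Prf1 and Eomes lay under it on all these arrays, so the sums rest on the few other markers. The sums were lower in LSC for 7 granulocyte markers (1074 to 11629 against 32473 to 33203), 7 B cell markers (6724 to 10515 against 27506 to 32807), 4 erythroid markers (238 to 1759 against 7200 to 15392) and 11 stroma and endothelium markers (374 to 571 against 1747 to 2129). The 10 macrophage markers summed to 22724 in HSC 1, the array with the higher Id2, and 3164 in HSC 2, against 7016 in LSC 1 and 1772 in LSC 2. The part of these cells and of the beta-actin ratio in the LSC differences was not tested.

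**Figure D3:**
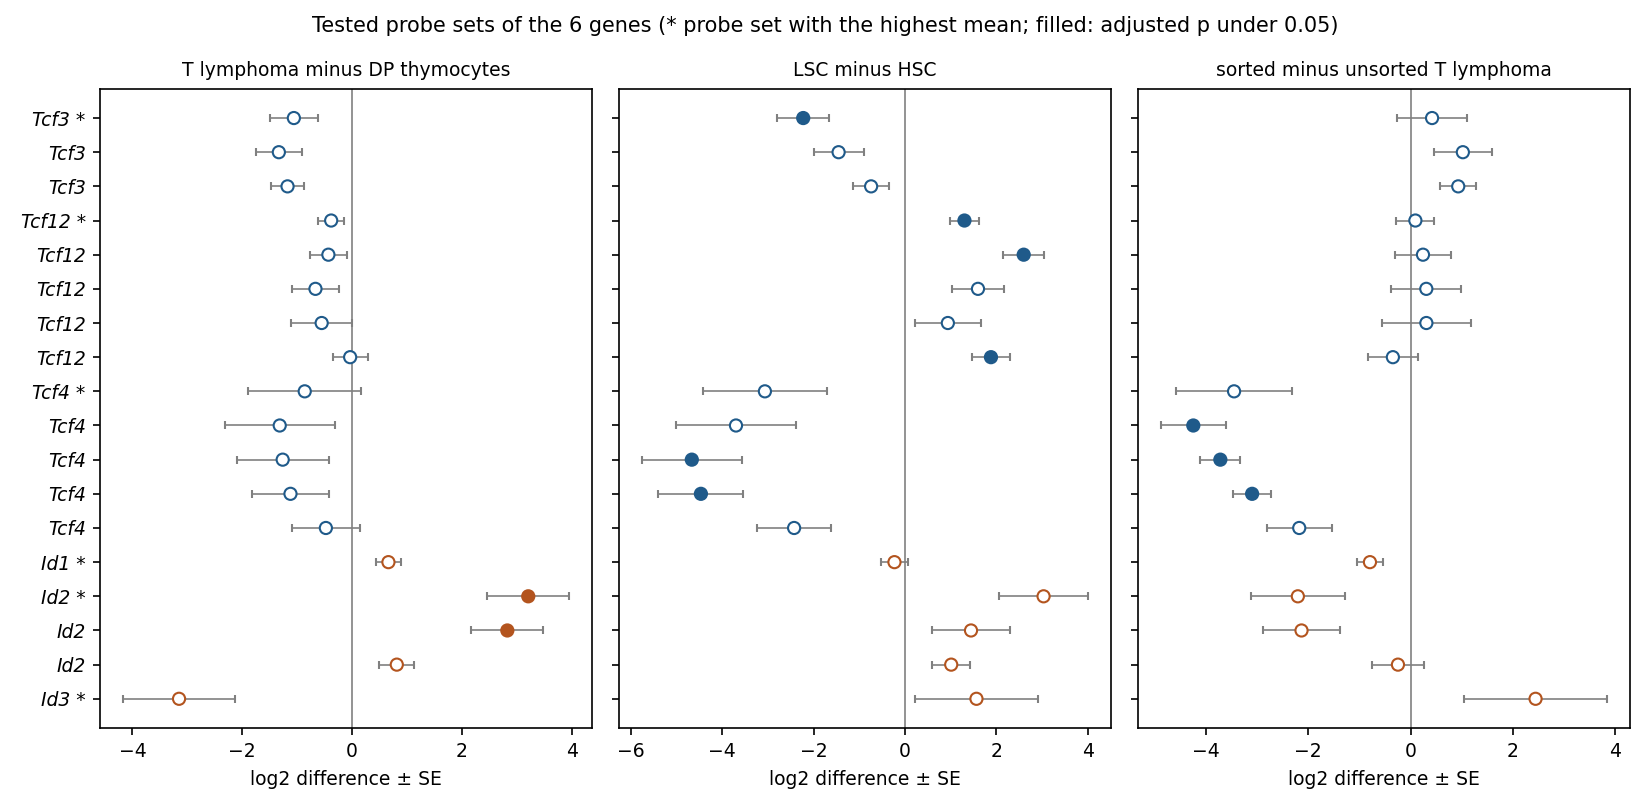
Log2 difference with its SE (horizontal axes) for the 18 tested probe sets of the 6 genes in 3 comparisons. An asterisk marks the representative probe set, blue is for E proteins and orange for Id inhibitors, and filled points passed limma's test over all probe sets. All 5 Tcf12 probe sets lay at 0.94 or above in LSC minus HSC, and all 5 of Tcf4 were below 0 in each panel.

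To set the groups in order across both sides, each array was centred on its own median, as a description with no test. Id2 was highest in LSC (13.18 ± 1.00, SD, n = 2), then in the cell line (11.54), T lymphoma (10.93 ± 1.21, n = 4), HSC (10.04 ± 1.65, n = 2) and DP thymocytes (7.79 ± 0.05, n = 3). On this scale LSC lay above all other groups in every array, and DP thymocytes lay below them. Each of the 3 groups between overlapped its neighbour. Orders across the sides rest on this centring, which cannot mend a difference in scale between sides normalized apart. Before centring, LSC 2 at 11.62 lay below lymphomas 1 and 3 (12.77 and 11.79) and the cell line (11.93). HSC 2 at 8.14 then lay within the DP range of 8.10 to 8.21. Id3 was highest in DP thymocytes (11.20 ± 0.13, n = 3), followed by T lymphoma (7.98 ± 1.41, n = 4), LSC (7.85 ± 3.21, n = 2), HSC (6.18 ± 1.07, n = 2) and the cell line (6.10), and the groups below DP thymocytes overlapped their neighbours. DP thymocytes were thus at opposite ends of the 2 centred orders.

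On the same centred scale, Tcf3 ran from the cell line (11.83) through DP thymocytes (11.41 ± 0.15, n = 3), HSC (10.38 ± 0.11, n = 2) and T lymphoma (10.28 ± 0.43, n = 4) to LSC (8.26 ± 1.55, n = 2). HSC lay within the range of T lymphoma, and the other neighbours did not overlap. Tcf12 was at 13.40 ± 0.11 (n = 3) in DP thymocytes, 13.02 in LSC and the cell line and 12.95 ± 0.15 (n = 4) in T lymphoma, with LSC overlapping each of these groups, and lowest at 11.60 ± 0.59 (n = 2) in HSC. Tcf4 was highest in HSC (10.50 ± 0.18, n = 2), and its values in T lymphoma (7.94 ± 1.75, n = 4) and LSC (7.55 ± 2.59, n = 2) spanned those of DP thymocytes (8.87 ± 0.20, n = 3) and the cell line (7.20). Id1 lay between 5.35 and 6.62 on all arrays.

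The 3 tested genes whose pattern was most like that of Id2 over the 8 arrays outside HSC and LSC were Mdfic, Lap3 and Klk1b27. The measure was the root mean square difference after each gene was centred on its own mean: 0.360 for Mdfic, which encodes a relative of the MyoD family inhibitor, 0.40 for Lap3, a leucine aminopeptidase, and 0.496 for Klk1b27, a kallikrein-related peptidase. Mdfic read 7.99, 8.10 and 8.22 in DP thymocytes, 12.84, 10.25 and 11.68 in the unsorted lymphomas, 8.92 in the sorted one and 11.78 in the cell line. The sorted lymphoma was the lowest lymphoma array for all 3 genes, at 9.08 for Lap3 and 6.49 for Klk1b27. The genes were picked for their likeness to Id2 on these same arrays, so this is no separate result about them. In T lymphoma minus DP thymocytes only Lap3 passed (limma, Benjamini-Hochberg adjusted p = 0.0128), with 0.0774 for Mdfic and 0.0710 for Klk1b27.

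E proteins act with other helix-loop-helix factors and LIM cofactors, and 7 of 12 such genes were tested. In T lymphoma Lmo4, a LIM-only protein, fell by 2.07 ± 0.27 and none rose, so 1 of 7 was called where 6.55% of all genes were. The list's median was 0.35 against -0.02 over all genes. Lmo2, the LIM-only partner of TAL1 and LYL1, had 1.79 ± 0.81 (adjusted p = 0.228), reading 8.86 to 10.14 in the unsorted lymphomas, 6.81 in the sorted one and 6.88 to 6.92 in DP thymocytes. In LSC, Lmo2 fell by 3.92 ± 1.06, as did its bridging partner Ldb1 (-2.49 ± 0.65) and Lyl1, a helix-loop-helix factor of progenitors (-3.37 ± 0.85), with none higher among the 7 (10.3% of all genes called) and a median of -2.49 against -0.03 over all genes (limma, Benjamini-Hochberg adjusted p = 0.0474, 0.0422 and 0.0366). Lyl1 read 10.49 and 10.81 in HSC and 8.88 and 5.68 in LSC, and Lmo2 read 12.19 and 12.67 in HSC and 9.97 and 7.06 in LSC, so that LSC 2 was the lowest for both. All 3 calls were lost without HSC 1 or without HSC 2, that of Ldb1 also without LSC 1 and that of Lmo2 also without LSC 2, with highest adjusted p-values of 0.143 for Lyl1, 0.150 for Ldb1 and 0.173 for Lmo2. Of 5 tested coactivators and corepressors, the acetyltransferase gene Kat2b rose in LSC, by 1.44 ± 0.28, a call lost without HSC 1 (adjusted p = 0.0548), and none passed in T lymphoma (3 at an unadjusted p under 0.05), where the corepressor gene Cbfa2t3 had -1.85 ± 0.54 (limma, Benjamini-Hochberg adjusted p = 0.0799). In the main fit of T lymphoma, 2888 of all 12797 genes tested were at an unadjusted p under 0.05. Without the sorted lymphoma 1 of the 5 fell, and with only the arrays compared 3 of the 5 fell. Both fits also called more of all genes tested than the main fit with its 838, and without the sorted lymphoma 1572 were called. In LSC minus HSC no gene of these lists, or of those that follow, passed with only the arrays compared, a fit in which no gene of the whole table passed.

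Of 11 tested target genes of E proteins in T cell precursors, 4 rose and 4 fell in T lymphoma, where 3.37% of all genes rose and 3.18% fell, and the median was -0.55 against -0.02 over all genes. Those that rose were Il7r, the interleukin-7 receptor (4.14 ± 0.73), Cdkn1a, the cell cycle inhibitor p21 (2.65 ± 0.27), the pre-T cell receptor gene Ptcra (2.27 ± 0.50), and Notch1 (1.64 ± 0.21). Those that fell were the coreceptor gene Cd4 (-2.88 ± 0.40), the repressor Gfi1 (-1.53 ± 0.29), the chemokine receptor Cxcr4 (-1.0 ± 0.19) and the recombinase gene Rag1 (-0.76 ± 0.18). Rag2, the partner of Rag1, had -1.92 ± 0.49 (limma, Benjamini-Hochberg adjusted p = 0.0508). The targets thus moved in both directions. Rag1 read 13.69 to 13.99 in T lymphoma against 14.53 to 14.71 in DP thymocytes, and Ptcra read 9.23 to 9.59 against 11.56, 12.41 and 12.41 in the unsorted lymphomas and 10.36 in the sorted one. In fits without 1 array, Notch1, Cdkn1a and Cd4 kept their calls in all 7. Il7r lost its call without DP 2 (adjusted p = 0.0515), Gfi1 and Cxcr4 without any DP array (highest adjusted p = 0.0764 and 0.0752), and Rag1 and Ptcra in every fit except that without the sorted lymphoma (highest adjusted p = 0.181 and 0.129). With the sorted lymphoma as the only one, the differences were 2.72 for Cdkn1a, 2.45 for Il7r, 1.87 for Notch1 and 0.95 for Ptcra. They were -2.18 for Cd4, -1.39 for Gfi1, -0.92 for Cxcr4 and -0.77 for Rag1. In the cell line Cdkn1a and Notch1 rose against DP thymocytes, by 3.53 and 1.86, and Cd4 and Rag2 fell (-6.32 and -4.15), each a call kept without each DP array in turn.

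In LSC 3 of these 11 targets rose and none fell, where 4.05% of all genes rose and 6.21% fell, and the median was 0.47 against -0.03 over all genes. They were Rag1 (3.89 ± 0.24), Cdkn1a (2.98 ± 0.35) and Cxcr4 (1.41 ± 0.25), and each kept its call in all 4 fits without 1 array. Rag1 read 7.48 and 6.93 in HSC and 10.92 and 11.27 in LSC. Rag1 and Cxcr4 thus rose in LSC and fell in T lymphoma, and the differences of the contrasts, 4.65 ± 0.30 and 2.41 ± 0.32, passed the test (limma, Benjamini-Hochberg adjusted p = 1.40e-04 and 0.0032). Of 8 tested targets in B cell precursors, none passed in T lymphoma. There 2 of the 8 were at an unadjusted p under 0.05, as were 2888 of all 12797 genes tested. In LSC Foxo1, a forkhead factor, rose by 2.56 ± 0.56 and the surrogate light chain gene Vpreb1 fell by 1.92 ± 0.48; the first call was lost without HSC 2 or LSC 2 and the second without HSC 1 or LSC 1. Vpreb1 read 5.58 and 6.0 in LSC, under the filter level, so the size of its fall is uncertain.

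EGR and NFAT factors are known to induce Id genes after receptor signals, and all 6 listed were tested. Egr1 read 12.83, 12.85 and 12.91 in DP thymocytes, 9.95, 9.10 and 7.58 in the unsorted lymphomas, 8.58 in the sorted one and 6.95 in the cell line. Egr2 read 10.71, 10.78 and 10.84 in DP thymocytes, 7.30, 8.42 and 6.60 in the unsorted lymphomas, 8.82 in the sorted one and 5.84 in the cell line. Every tumour array lay below every DP array for both genes, the sorted tumour included. Egr1 fell by 4.06 ± 0.57, Egr2 by 2.99 ± 0.68 and Nfatc3 by 1.47 ± 0.29, while Nfatc2 rose by 2.18 ± 0.47, and the median was -0.89 against -0.02 over all genes. So 1 of the 6 rose and 3 fell, where 3.37% of all genes tested rose and 3.18% fell. Egr1 kept its call in all 7 fits without 1 array. With the sorted lymphoma alone Egr1 was at -4.28, Egr2 at -1.95, Nfatc3 at -0.97 and Nfatc2 at 3.17. Egr2 kept its call in 1 of the 7, that without the sorted lymphoma, and its highest adjusted p in the others was 0.124. Nfatc2 lost its call without any DP array, lymphoma 1 or lymphoma 2, and Nfatc3 without any DP array or lymphoma 2 (highest adjusted p = 0.112 and 0.0802). Egr3 was at -0.08 ± 0.17 (adjusted p = 0.843). In the cell line Egr1, Egr2 and Nfatc3 fell against DP thymocytes (-5.91, -4.93 and -1.98), and only the Egr1 call was kept without each DP array in turn; Egr2 read under the filter level there, so its size is uncertain. In LSC Nfatc2 rose, by 2.32 ± 0.61, a call kept only without LSC 1.

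**Figure D4:**
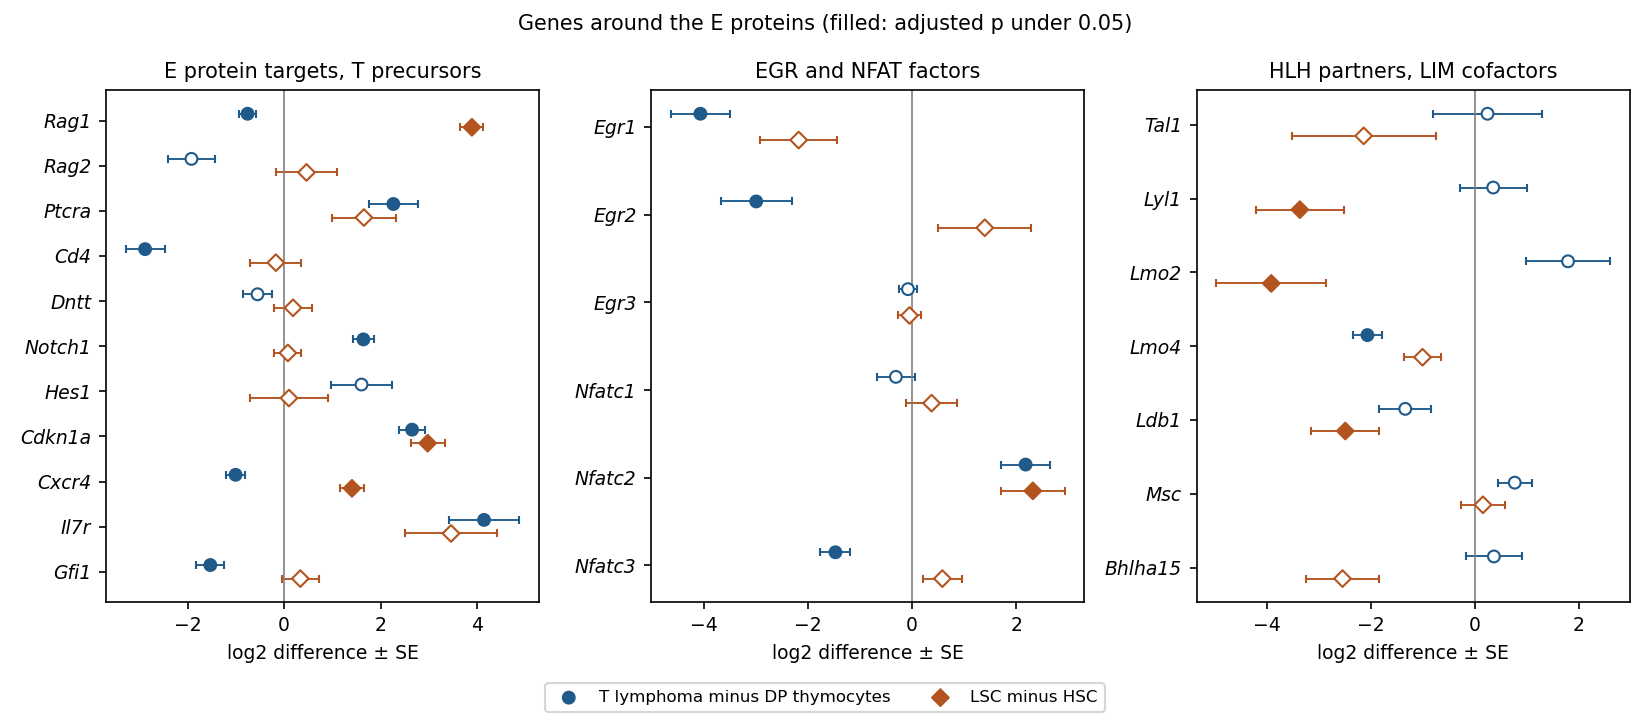
Log2 difference with its SE (horizontal axes) for the tested E protein targets of T cell precursors, the EGR and NFAT factors, and the helix-loop-helix partners and LIM cofactors. Blue circles are T lymphoma minus DP thymocytes, orange diamonds are LSC minus HSC, and filled symbols passed limma's test. Rag1 was at -0.76 and 3.89, Egr1 at -4.06 and -2.17, and Lmo2 at 1.79 and -3.92.

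BMP and TGF-beta signals are the other known inducers of Id genes. None of 11 tested members of these pathways passed in the main fit of T lymphoma. There 1 of the 11 was at an unadjusted p under 0.05, as were 2888 of all 12797 genes tested. Smad7, an inhibitory SMAD, had 1.73 ± 0.67 (limma, Benjamini-Hochberg adjusted p = 0.167). The BMP receptor gene Bmpr1a had 1.21 ± 0.58 (adjusted p = 0.257). In LSC Bambi, a decoy receptor of this family, fell by 1.66 ± 0.36, a call lost without HSC 2 (limma, Benjamini-Hochberg adjusted p = 0.115); it read 5.09 and 5.32 in LSC, under the filter level, so the size of this fall is uncertain too. Of 10 tested regulators of the innate and effector lymphocytes that are known to express Id2, Runx3 rose by 3.33 ± 0.74 in T lymphoma and Tox and Gata3 fell (-2.66 ± 0.31 and -2.30 ± 0.34). Over all genes tested 3.37% rose and 3.18% fell, and the list's median was 0.43 against -0.02 over all genes. Tox and Gata3 kept their calls in all 7 fits without 1 array, and Runx3 in 2, those without lymphoma 3 or the sorted lymphoma (highest adjusted p = 0.122). With the sorted lymphoma alone the calls of Tox (-2.75, adjusted p = 0.0579) and Gata3 (-1.53, adjusted p = 0.201) were lost, and that of Runx3 was kept (5.09; limma, Benjamini-Hochberg adjusted p = 0.0035). None of the 10 passed in LSC, where Rora was at 2.60 ± 0.93 (limma, Benjamini-Hochberg adjusted p = 0.116) and Nfil3 at 2.37 ± 0.73 (adjusted p = 0.0717). There 4 of the 10 were at an unadjusted p under 0.05, as were 3317 of all 12797 genes tested.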

How the data were processed

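The files hold 1 Affymetrix mouse array per sample. Per the labels' protocols, RNA was extracted with Trizol and amplified with an Affymetrix labelling kit. The deposited values are intensities on the linear scale, and the submitters' processing notes name RMA (version not given in the sources used here); log2 was taken here. From their medians, the HSC and LSC arrays were taken as normalized apart from the rest. Of 45101 probe sets, 64 were controls; outside these the platform annotation gave 34945 a single gene symbol. Genes above log2 6.33 in at least 2 arrays were tested with limma 3.58.1 in R 4.3.3 (lmFit, eBayes, two-sided), with 1 mean per group over 12 arrays and Benjamini-Hochberg adjustment over 12797 genes. Precision is limited by the few arrays. The fit was tested on simulated data, in which all groups shared 1 SD per gene. The groups here differed in spread, so that test cannot vouch for the p-values of these data.

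The 6 genes, the lists and the naming rule (list members past the test, up to 3 that were not, and the 3 genes most like each of the 6 called in T lymphoma) were chosen with earlier results of these data known. Alternatives covered filter, probe set choice, scaling, prior, array weights, arrays fitted, the sorted lymphoma, the replicate block and arrays left out. List genes shown array by array were picked after their values were seen.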

Additional observations from a re-analysis of the deposited data

Results flagged for a closer look

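Among 69 probe sets looked at, 4 had 1 of the 4 lymphoma arrays set far apart from the others by Dixon's test. Chance marks about 1 in 20 such groups. Tcf12 was lowest in lymphoma 2, at 13.17. Dntt, the terminal transferase gene, was highest in the sorted lymphoma, at 14.41. Tox was highest in lymphoma 3, at 8.43, and Klrg1, a receptor of effector lymphocytes, in lymphoma 1, at 8.33.

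For 11 of the 64 genes looked at (the 6 genes and the tested list genes) the difference between LSC and HSC was itself unlike that between T lymphoma and DP thymocytes by limma's test of the difference of the contrasts, which 8.88% of all genes passed. Tcf12 had 1.68. Among E protein targets, Rag1 had 4.65, Cd4 2.71, Cxcr4 2.41, Gfi1 1.87 and Notch1 -1.56. Lmo2 had -5.71. Of the other lists, Egr2 had 4.39, Gata3 3.46, Tox 2.96 and Nfatc3 2.05. In the 11 fits without 1 array, Cxcr4, Rag1, Tox and Gata3 kept this call each time, and Egr2 kept it in 2.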

How the results depend on the processing

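With only the arrays compared, 1826 genes were called in T lymphoma minus DP thymocytes, 0 in LSC minus HSC (limma; 1535 at an unadjusted p under 0.05), 4 and 6284 in the cell line against T lymphoma and DP thymocytes, and 0 in sorted minus unsorted (1281 unadjusted). With array weights the counts were 4681, 103, 1834, 3993 and 948 in the same order, and 311 for the difference of the contrasts. Against the main counts of 838 and 1136, the replicate block gave 509 for T lymphoma and 646 for the difference of the contrasts, and the sorted lymphoma alone 320 and 280. T lymphoma had 1572 without the sorted lymphoma. Sorted minus unsorted had 53 with no filter and 50 with means over probe sets. Without 1 array, counts ranged from 383 to 1572 for T lymphoma, 774 to 2716 for LSC, 446 to 2444 for the difference of the contrasts, 68 to 290 and 297 to 336 for the cell line, and 40 to 248 for sorted minus unsorted.

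For T lymphoma and the difference of the contrasts, the fit without the sorted lymphoma is counted both by that name and among those without 1 array. The calls on Id2 in T lymphoma and on the Tcf12 difference of the contrasts passed in it. Of the 4 calls on the 6 genes, Id2 in T lymphoma stayed positive in all 19 alternatives and passed in 10. It did not pass with no filter (3.21, adjusted p = 0.0552), the replicate block (3.23, adjusted p = 0.0768) or the sorted lymphoma alone (1.56), and was 2.74 to 3.76 without 1 array. Tcf3 in LSC passed in 5 of 14, and did not with no filter, array weights, the replicate block or only the arrays compared (-2.23 each), means over probe sets (-1.47) or median centring (-2.11); without 1 array it was -3.31 to -1.14. Tcf12 in LSC passed in 10 of 14, not with array weights or only the arrays compared (1.30 each), and was 0.89 to 1.71 without 1 array. The Tcf12 difference of the contrasts passed in 15 of 23, not with array weights (1.75) or the sorted lymphoma alone (1.61), and was 1.27 to 2.09 without 1 array.

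Signs turned only in values that did not pass. Tcf4 in T lymphoma was 0.00045 without the sorted lymphoma (-1.36 to 0.00045 without 1 array), and its difference of the contrasts 0.38 with it alone. Id3 in LSC was -0.69 without LSC 2 and 3.82 without LSC 1. The Id2 difference of the contrasts was 0.0072 with median centring, 1.48 with the sorted lymphoma alone and -1.35 to 1.00 without 1 array (0.30 without lymphoma 1, 1.00 without HSC 1, 0.55 without LSC 2). Tcf12 was -0.064 with quantile normalization and -0.037 to 0.054 without 1 array in the cell line against T lymphoma, and -0.037 with quantile normalization in sorted minus unsorted. The causes were not tested.

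Replicate numbers did not pair the arrays: deviations of same-numbered DP and lymphoma arrays correlated at 0.033, -0.067 and -0.0011, and of HSC and LSC arrays at 0.098, where a pair of replicates allows only 1 value.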
